A study of Mus musculus with 2 samples.

Results

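The DLK, JNK and SARM1 genes are the kinase cascade that reports axon damage to the nucleus together with the enzyme pair that decides whether an injured axon is dismantled. The set has 9 members of the 31053 genes in the count matrices: Map3k12 (DLK), Map3k13 (LZK), Map2k4 (MKK4), Mapk8 (JNK1), Mapk9 (JNK2), Mapk10 (JNK3), Mapk8ip3 (JIP3), Sarm1 and Nmnat2. They were chosen by gene name from what is known of the pathway, with earlier results of these data known. Each was followed through every cell type label of the sorted nuclei. All 9 passed the filter on low counts in every comparison.

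Nuclei came from the ipsilateral cerebral cortex of Atf3-CreER::Sun1-sfGFP mice, heterozygous for both alleles and over 7 weeks old, 7 days after a closed-skull mild traumatic brain injury (mTBI). Tamoxifen given on days 4 and 5 after injury switched on a GFP anchored in the nuclear envelope in cells that expressed Atf3 at that time, and GFP+ nuclei that took up a DNA dye (DRAQ5) were sorted and sequenced with 10X Genomics 3′ chemistry. There were 2 libraries, 1 from a pool of 4 males and 1 from a pool of 4 females. Every animal carried both alleles and received injury and tamoxifen, and every nucleus was selected through the Atf3 driver, so the comparisons below are between cell types of injured cortex. Uninjured nuclei were not analysed here, and the values say nothing of whether injury changed a gene.

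DLK and its relative LZK are MAP kinase kinase kinases held along axons. When an axon is damaged they activate MKK4 and its relative MKK7, which switch on JNK; scaffolds such as JIP3 carry the kinases back along microtubules to the cell body, where JNK phosphorylates Jun and transcription factors such as ATF3 follow. In neurons of the central nervous system this relay is best known for driving cell death after axon injury, and in sensory neurons for starting regrowth. SARM1 is an enzyme that destroys NAD and takes axons apart, and NMNAT2 is the short-lived NAD-making enzyme that keeps SARM1 inactive while it is still being delivered to the axon. What was measured here is the nuclear RNA of these genes, not the proteins or their activity.

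The male library held 4003 labelled nuclei and the female library 4168, with a median of 1742 and 3710 unique molecular identifiers (UMIs, each standing for 1 captured RNA molecule) per nucleus, and 1 barcode occurred in both. A field of the public label gives the female library as male, but its name and its counts put it as female (37890 UMIs of Xist, and 23 of Y-linked genes against 3309 in the male library). The labels used were the 9 neuronal labels of at least 50 nuclei, with 1344 male and 1155 female nuclei, and 6 non-neuronal or Unknown labels with at least 10 nuclei in each library. Endothelial nuclei (5 male, 0 female) were left out. Levels are in CPM, the share of a gene among all UMIs of the summed nuclei of a label and library on the usual CPM scale, and each pair of values gives the male library first. Nuclei labelled L2/3 IT CTX-2 and L6 IT were shallow (medians of 1506 to 2708 UMIs) and rich in microglial markers (584 to 1648 CPM for 5 genes, where microglia had 3314 and 3628), so results were also computed without them. The 4 markers of L5 PT neurons were scarce and mixed. Bcl11b had 61.9 and 42.5 CPM in the L5 PT label, 14.4 and 12.2 in L2/3 IT CTX-1 and 110 and 117 in L6 CT. Fezf2 (3.06 and 5.78 CPM) and Fam84b (2.45 and 2.02) were above both of those labels in each library, while Pou3f1 (9.80 and 7.52) was above L6 CT, where it had no UMI, and below L2/3 IT CTX-1 (15.04 and 14.97). The SMC-Peri label held more of the VLMC markers (109 and 55.6 CPM) than of the mural markers (31.7 and 43.3), and it is called by its label only.

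Most members were lower in microglia than in neurons. Sarm1, Nmnat2, Map3k13 and Mapk10 were more than 5-fold lower in microglia than in neurons, Map3k12 was lower to a smaller degree, and Map2k4 and Mapk9 showed no difference that passed the test. Within neurons, Map3k12 and Sarm1 showed no difference between L5 PT and L2/3 IT neurons that passed the test. The one member that did was Mapk10, which was lower in L5 PT neurons. On the mean of their labels, inhibitory neurons had more Nmnat2, Map3k13, Mapk9, Mapk10 and Mapk8ip3 than excitatory neurons. Of these genes, only Nmnat2 passed the test of inhibitory against excitatory neurons in every alternative processing.

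**Figure D1:**
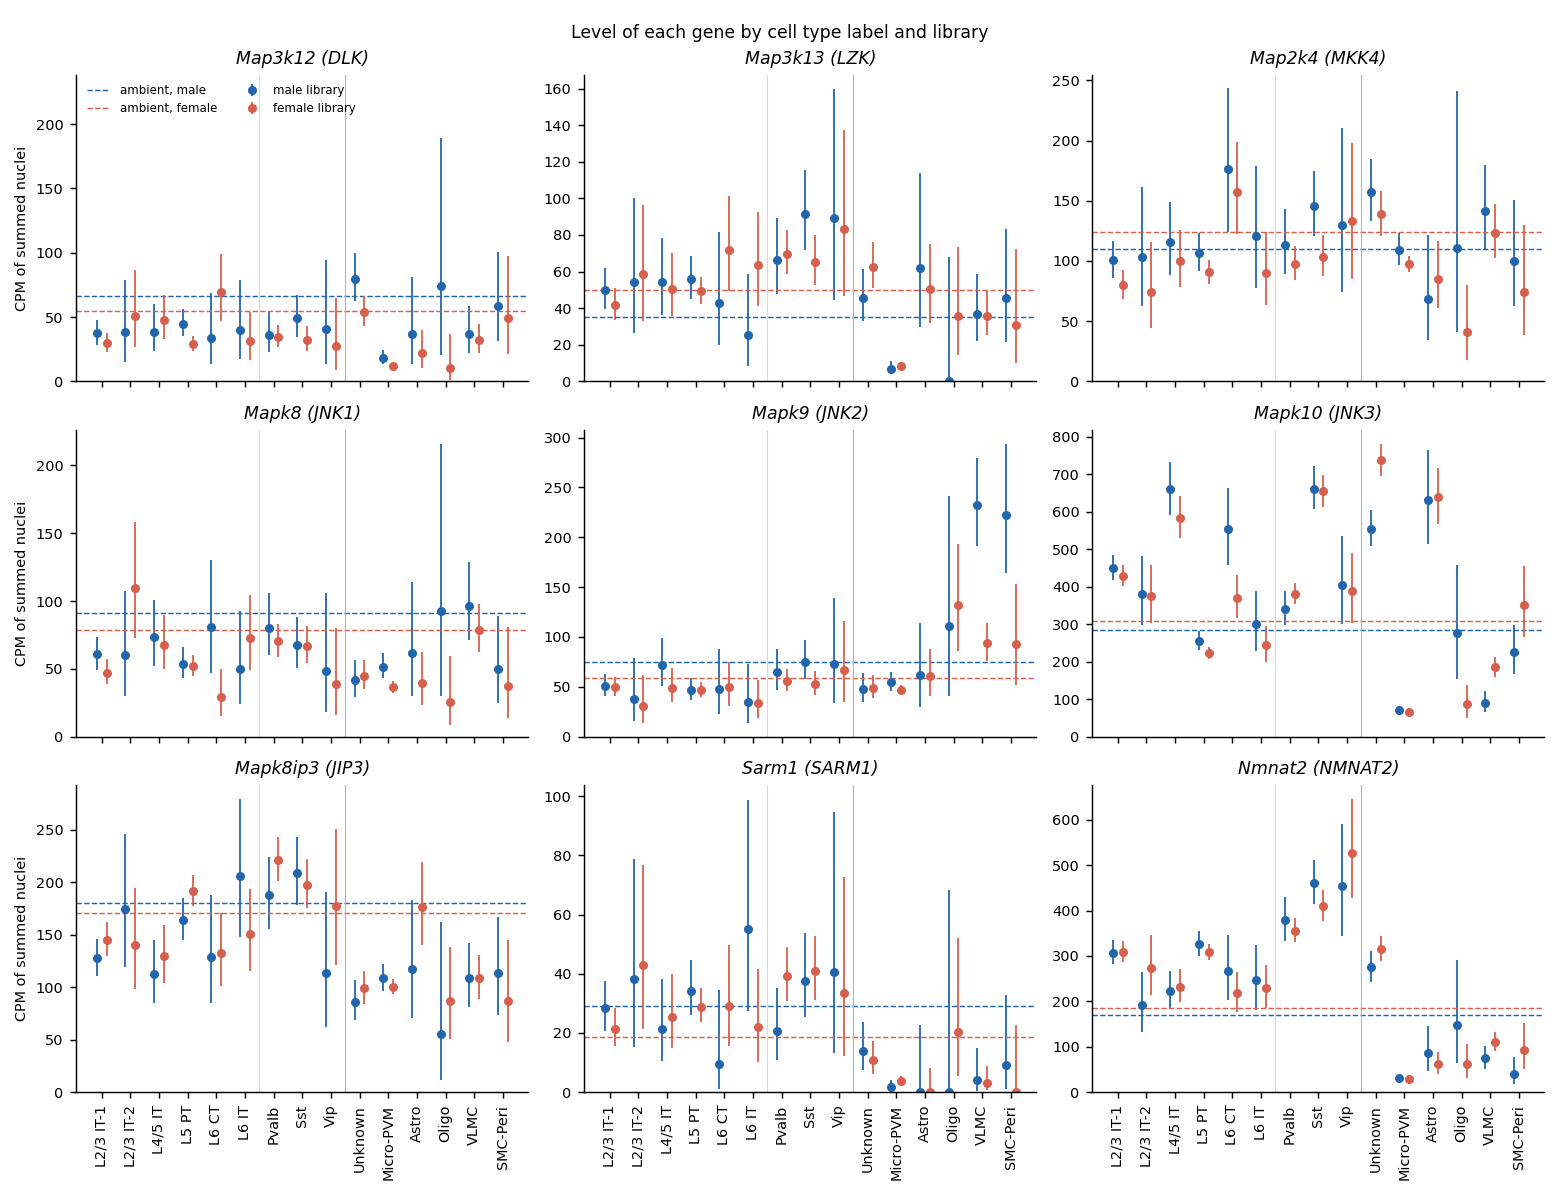
CPM of each of the 9 genes (vertical axes, linear from 0) in the summed nuclei of 15 labels, male library in blue and female library in red, with exact Poisson 95% intervals. Dashed lines give the level in ambient barcodes of each library. Sarm1 and Nmnat2 are near 0 in microglia (Micro-PVM), and Mapk10 in L5 PT neurons (255 and 223 CPM) is under its level in L2/3 IT CTX-1 (450 and 429 CPM).

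Map3k12 encodes DLK, the kinase at the head of the cascade (ENSMUSG00000023050, chromosome 15, 102497646 to 102517064, minus strand, GRCm38). It was scarce. L5 PT neurons had 44.7 and 29.2 CPM, L2/3 IT CTX-1 neurons 37.3 and 29.5, Pvalb neurons 36.3 and 34.6 and Sst neurons 49.0 and 32.0. Over the 9 neuronal labels single library values ran from 27.8 (Vip, female) to 69.6 (L6 CT, female), and each label overlapped its neighbours in the order of means. Microglia had the lowest mean of all 15 labels, with 18.4 and 11.7 CPM, and did not overlap the next label, astrocytes (37.1 and 21.8). Oligodendrocytes, with few nuclei, ran from 74.0 to 10.2. The gene overlaps Pcbp2 on the opposite strand. In ambient barcodes, those with at most 100 UMIs that were not called as nuclei, Map3k12 stood at 66.3 and 54.4 CPM, above its level in neurons as a whole (41.0 and 34.0). A UMI of Map3k12 was found in 17.6% and 27.9% of L5 PT nuclei and in 2.66% and 3.85% of microglia, at median depths of 3790 and 10700 against 1298.5 and 3012.5 UMIs. After thinning to 1000 UMIs the shares were 6.10% and 2.08% against 2.10% and 1.38%, and thinned shares of this size rest on 1 UMI per nucleus.

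Map3k13 encodes LZK, which shares substrates with DLK (ENSMUSG00000033618, chromosome 16, 21794346 to 21933439, plus strand). It was highest in inhibitory neurons, with 89.3 and 83.3 CPM in Vip, 91.7 and 65.4 in Sst and 66.2 and 69.7 in Pvalb. Excitatory labels with deep nuclei lay lower, at 55.7 and 49.2 in L5 PT and 49.9 and 41.7 in L2/3 IT CTX-1, and only L6 CT (43.0 and 71.8) reached into the inhibitory range. Microglia had 6.82 and 8.46 CPM, well under the ambient level of 35.2 and 50.01. The balance of the DLK and LZK transcripts followed the same split: Map3k12 made up 43.9% and 40.9% of the UMIs of both genes in excitatory neurons and 34.7% and 32.6% in inhibitory neurons, though the 95% intervals overlapped in both libraries (39.0 to 48.9 against 28.0 to 41.9 for the male, 37.0 to 44.9 against 27.8 to 37.7 for the female). Map3k13 shares its strand and part of its span with 1300002E11Rik, and per kilobase of gene span it had 0.425 and 0.400 CPM in neurons against 2.11 and 1.75 for Map3k12.

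Map2k4 encodes MKK4, a kinase that phosphorylates JNK (ENSMUSG00000033352, chromosome 11, 65688243 to 65788297, minus strand). It was among the most evenly spread members. L5 PT neurons had 107 and 90.5 CPM, L2/3 IT CTX-1 100.5 and 79.8, and microglia 109 and 97.2. L6 CT was highest, with 177 and 157 CPM. Each of the 15 labels overlapped the next in the order of means, and the ambient level (110 and 124) was close to that of most labels.

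The 3 JNK genes differed in where they were found. Mapk10 encodes JNK3, the neuronal JNK (ENSMUSG00000046709, chromosome 5, 102907948 to 103211334, minus strand), and it was the most abundant member in CPM, at 427 and 384 in neurons as a whole. It also has the longest gene of the 9, and reads in introns were counted. Per kilobase of gene span, Mapk10 (1.41 and 1.27 CPM) and Mapk9 (1.41 and 1.25 CPM) were alike in neurons and Mapk8 was lower (0.911 and 0.838 CPM). Sst neurons had 662 and 654 CPM of Mapk10, L4/5 IT 660 and 584, L6 CT 554 and 370, L2/3 IT CTX-1 450 and 429, Vip 406 and 389, L2/3 IT CTX-2 382 and 375, Pvalb 341 and 381, L6 IT 301 and 244 and L5 PT 255 and 223. L5 PT was thus the lowest of the 9 neuronal labels in both libraries, though its range overlapped that of the next, L6 IT. Astrocytes, in which neuronal markers were low (1535 and 2065 CPM), had 631 and 640 CPM of Mapk10, and microglia had 71.8 and 66.6. Ambient barcodes had 286 and 310 CPM of Mapk10, above the L5 PT level, and the ambient share estimated from microglial markers was 34.3% and 49.0% in L5 PT and 29.9% and 49.5% in L2/3 IT CTX-1. The part of ambient RNA in the Mapk10 levels was not tested.

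Mapk8 encodes JNK1 (ENSMUSG00000021936, chromosome 14, 33377898 to 33447158, minus strand), which is found in most tissues. It had 53.9 and 51.8 CPM in L5 PT, 60.8 and 47.2 in L2/3 IT CTX-1, 80.4 and 70.2 in Pvalb and 51.7 and 36.3 in microglia, and each label in the order of means overlapped the next. Mapk9 encodes JNK2 (ENSMUSG00000020366, chromosome 11, 49846751 to 49886421, plus strand). It had 47.2 and 47.1 CPM in L5 PT, 51.1 and 49.9 in L2/3 IT CTX-1, 75.4 and 52.9 in Sst and 54.5 and 47.0 in microglia. Both genes were under their ambient levels (91.1 and 78.3 CPM for Mapk8, 74.5 and 58.7 for Mapk9) in neurons as a whole.

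Because the 3 JNK genes were counted in the same nuclei, their shares of the summed JNK UMIs do not depend on total depth. Ambient RNA can still move them. Ambient barcodes held 138 and 285 UMIs of Mapk10, 44 and 72 of Mapk8 and 36 and 54 of Mapk9. The part of ambient RNA in the shares was not tested. Mapk10 made up 71.6% (95% Clopper-Pearson interval 67.8 to 75.3, male) and 69.2% (66.4 to 71.9, female) in L5 PT neurons. In L2/3 IT CTX-1 neurons the shares were 80.1% (77.4 to 82.6) and 81.5% (79.2 to 83.7), and the intervals of these labels did not overlap in either library. Sst neurons (82.2% and 84.5%) and L4/5 IT neurons (82.0% and 83.3%) were like L2/3 IT CTX-1, while Pvalb neurons (70.1% and 75.1%) were nearer to L5 PT. In microglia the 3 genes were more even, with 40.3% and 44.4% Mapk10. These intervals cover counting error only and no test was made on the shares.

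**Figure D2:**
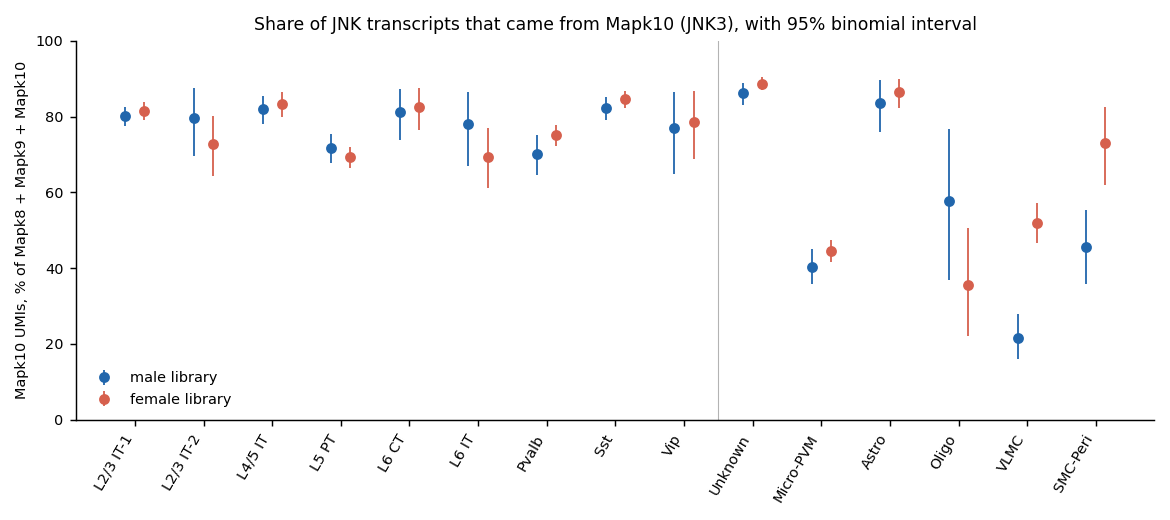
Mapk10 UMIs as a percent of the UMIs of Mapk8, Mapk9 and Mapk10 (vertical axis) by label, with exact binomial 95% intervals, male library in blue and female library in red. L5 PT neurons (71.6% and 69.2%) lie under L2/3 IT CTX-1 neurons (80.1% and 81.5%), and microglia (40.3% and 44.4%) lie under all 9 neuronal labels.

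Mapk8ip3 encodes JIP3, the scaffold that links JNK cargo to microtubule motors (ENSMUSG00000024163, chromosome 17, 24892153 to 24936977, minus strand). Pvalb neurons had 188 and 221 CPM, Sst 209 and 198, L5 PT 164 and 192, L2/3 IT CTX-1 128 and 145, and microglia 109 and 100.2. The level in ambient barcodes was 180 and 171. The gene overlaps Eme2 on its own strand and Mrps34 and Nme3 on the other.

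Sarm1 (ENSMUSG00000050132, chromosome 11, 78472330 to 78497754, minus strand) had its lowest levels outside neurons. It had 34.3 and 28.9 CPM in L5 PT, 28.3 and 21.3 in L2/3 IT CTX-1, 37.7 and 41.0 in Sst and 20.5 and 39.2 in Pvalb neurons, and all 9 neuronal labels overlapped with a neighbour. In microglia there were 4 UMIs in 1690 male nuclei and 30 in 2338 female nuclei, which is 1.60 and 3.73 CPM and lies far under the ambient level of 29.0 and 18.5. In astrocytes there were 0 UMIs in 53 and in 62 nuclei, which allows up to 18.6 and 6.55 CPM at 3 counts. A Sarm1 UMI was found in 13.1% and 28.3% of L5 PT nuclei and in 0.237% and 1.28% of microglia. These shares are not corrected for depth, with medians of 3790 and 10700 UMIs in L5 PT against 1298.5 and 3012.5 in microglia.

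Nmnat2 (ENSMUSG00000042751, chromosome 1, 152954993 to 153119261, plus strand) was highest in inhibitory neurons. Vip neurons had 454 and 528 CPM, Sst 461 and 410 and Pvalb 378 and 356, and all 6 values were above those of every excitatory label. L5 PT had 326 and 308 CPM and L2/3 IT CTX-1 307 and 309, with the other excitatory labels between 191 and 273. Microglia had 30.5 and 28.5 CPM, against 170 and 185 in ambient barcodes. After thinning to 1000 UMIs, 25.6% and 27.3% of L5 PT nuclei and 3.64% and 2.89% of microglia had a UMI of Nmnat2. Relative to each other, Sarm1 made up 8.49% and 8.72% of the UMIs of Sarm1 and Nmnat2 in neurons as a whole.

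**Figure D3:**
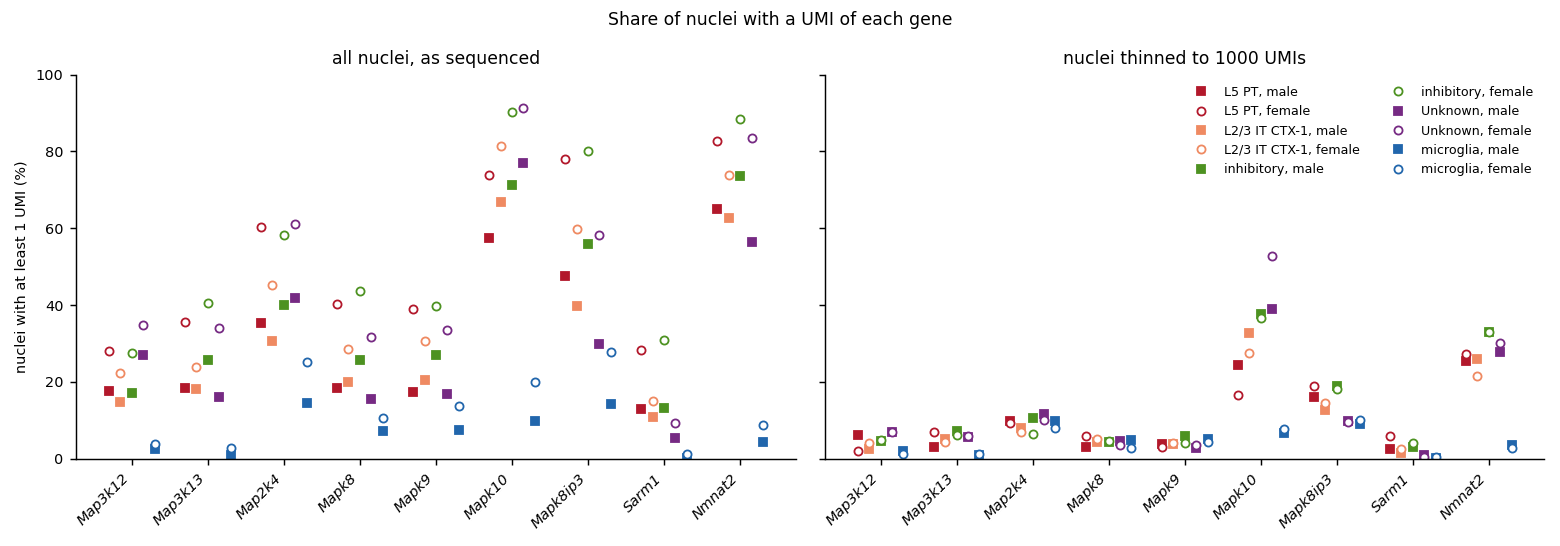
Percent of nuclei with at least 1 UMI of each gene (vertical axis) in 5 groups of nuclei, filled squares for the male and open circles for the female library, as sequenced (left) and after each nucleus was thinned to 1000 UMIs (right). For Nmnat2 in L5 PT the libraries are apart before thinning (65.1% and 82.8%) and closer after it. After thinning microglia stay below L5 PT for Nmnat2 (3.64% and 2.89% against 25.6% and 27.3%).

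The first comparison asked whether layer V neurons differ from layer II/III neurons in the machinery that senses axon injury. UMIs were summed per label and library and tested in edgeR (quasi-likelihood test, Benjamini-Hochberg adjusted p over all genes, threshold 0.05), with 1 fit of 18 neuronal sums and 8664 genes. The labels were made from these same counts, so the tests compare groups that the genes helped to define. Between L5 PT and L2/3 IT, 1 of the 9 members was called, where 12.8% of all genes tested were. Mapk10 was lower in L5 PT, at 239 ± 23.1 CPM (SD, n = 2 libraries), and its log2 fold change was -0.74 ± 0.16 (SE; adjusted p = 0.00333), and it was lower in both libraries (-0.58 and -0.69). Against L2/3 IT CTX-1 alone the log2 fold change was -0.87. The call was lost when ambient RNA was subtracted (-1.06, adjusted p = 0.839) and when nuclei with RNA of another class were left out (-0.50, adjusted p = 0.785). Those left out were neuronal nuclei with at least 2 UMIs of microglial markers, and microglia with at least 5 UMIs of neuronal markers. The limits were not scaled for depth, so deep nuclei could reach them more easily, and 928 male and 2136 female nuclei were removed. Over the 9 alternatives the adjusted p of Mapk10 ran from 1.41e-06 to 0.839.

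The other 8 members were not called between L5 PT and L2/3 IT, and their intervals cover the spread of the sums in the main fit only. Map3k12 differed by -0.07 on the log2 scale (95% interval -0.64 to 0.50), with 0.35 for the male library and -0.25 for the female. Sarm1 differed by 0.02 (-0.61 to 0.65) and Nmnat2 by 0.27 (-0.08 to 0.61). For Map3k12 and Sarm1 these intervals are wide, so differences within them could have been missed at this depth. Over the alternatives the estimates ran from -0.09 to 0.71 for Map3k12, 0.01 to 0.37 for Sarm1 and 0.06 to 0.54 for Nmnat2. Those of Map3k12, Mapk9 (-0.08 to 1.35), Mapk8ip3 (0.32 to 1.06) and Map2k4 (-0.19 to 0.585) went outside their main intervals. None of the 8 was called in an alternative. Mapk8ip3 had the largest positive estimate, 0.34 (-0.04 to 0.71), with 164 and 192 CPM against 151 and 143. Summed microglial markers were 485 and 827 CPM in L5 PT and 424 and 834 in L2/3 IT CTX-1.

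Against the mean of all 8 other neuronal labels, which shares the L5 PT sums with the comparison above, 1 of 9 members was called and 17.8% of all genes. This was again Mapk10, at -0.84 ± 0.15 on the log2 scale (adjusted p = 0.000192), and it was lower in both libraries (-0.72 and -0.76). The call was lost with ambient RNA subtracted (-1.16, adjusted p = 0.742) and without nuclei holding RNA of another class (-0.60, adjusted p = 0.528), in a range of 1.32e-12 to 0.742 over 8 alternatives. The estimates of Map3k12 (-0.12), Map3k13 (-0.21) and Mapk9 (-0.09) had opposite signs in the 2 libraries, as normalized log2 values. In mean CPM, Map3k13 (55.7 and 49.2 against 59.2 and 63.1) and Mapk9 (47.2 and 47.1 against 57.1 and 48.7) were lower in L5 PT in both.

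**Figure D4:**
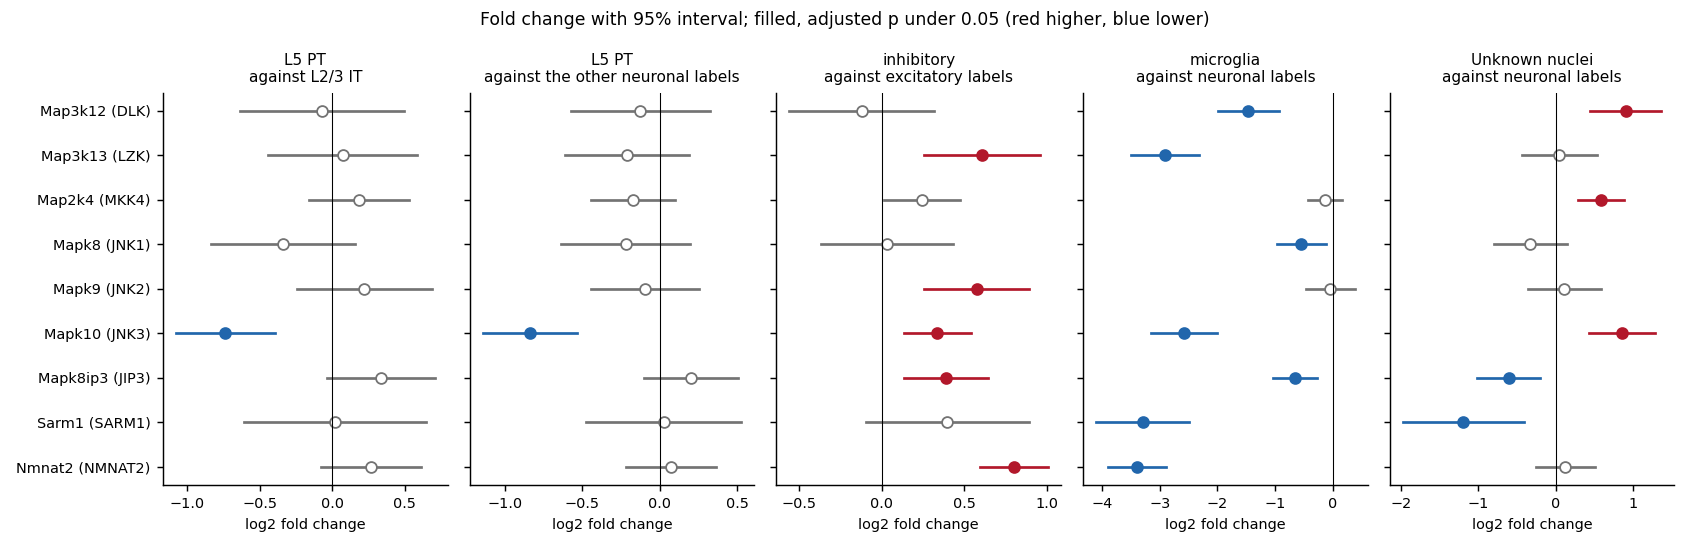
Log2 fold change (horizontal axes) with 95% interval of each of the 9 genes in 5 comparisons of summed nuclei. Filled points passed an adjusted p of 0.05, red higher and blue lower in the group named first, and the only filled point in the 2 panels of L5 PT neurons is Mapk10 (-0.74 and -0.84).

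Inhibitory neurons were set against excitatory neurons in the same fit, as the mean of Pvalb, Sst and Vip against the mean of the 6 excitatory labels. Of the 9 members 5 were called, where 24.6% of all genes were. Each of the 5 was higher, against 11.9% of all genes higher and 12.7% lower. The median log2 fold change of the 9 was 0.39, beside -0.05 over all genes. Nmnat2 was higher by 0.80 ± 0.10 (adjusted p = 1.9e-06), with 431 and 431 CPM in inhibitory against 260 and 262 in excitatory labels. It was called in all 8 alternatives (adjusted p up to 0.03995). Map3k13 was higher by 0.61 ± 0.17 (adjusted p = 0.00981), at 82.4 and 72.8 against 47.1 and 55.9 CPM, and lost its call when ambient RNA was subtracted (adjusted p = 0.161, range 0.00505 to 0.161).

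Mapk8ip3 (0.39 ± 0.12, adjusted p = 0.023), Mapk9 (0.58 ± 0.15, adjusted p = 0.00699) and Mapk10 (0.34 ± 0.10, adjusted p = 0.0119) made up the rest of the called members. The inhibitory labels were not alike. Mapk10 was above L2/3 IT CTX-1 (450 and 429 CPM) in Sst (662 and 654) but below it in Pvalb (341 and 381) and Vip (406 and 389). Mapk8ip3 had 114 and 178 CPM in Vip, against 188 and 221 in Pvalb and 209 and 198 in Sst. Mapk9 and Mapk10 were not called without the shallow L2/3 IT CTX-2 and L6 IT labels (adjusted p = 0.1003 and 0.239, ranges 0.00661 to 0.1003 and 0.0015 to 0.566). This left 3 called members, among 2150 called genes. Mapk10 and Mapk8ip3 also lost their calls with ambient RNA subtracted (adjusted p = 0.556 and 0.557) and without nuclei holding RNA of another class (adjusted p = 0.566 and 0.786), and the adjusted p of Mapk8ip3 ran from 0.00621 to 0.786. Sarm1 had the same direction (0.40, 95% interval -0.10 to 0.89) and was not called. Map3k12 was at -0.12 (-0.56 to 0.32), 0.20 for the male library and -0.28 for the female.

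Microglia are the largest class among the sorted nuclei and were compared with the mean of the 9 neuronal labels in a fit of 30 sums and 10642 genes. Of the 9 members 7 were called, where 59.9% of all genes were. Each of the 7 was lower, against 26.8% of all genes lower and 33.2% higher, and the median member stood at -1.47 against 0.17 for all genes. Nmnat2 (-3.40 ± 0.25, adjusted p = 1.07e-12), Sarm1 (-3.30 ± 0.39, adjusted p = 2.9e-08), Map3k13 (-2.92 ± 0.29, adjusted p = 5.39e-10) and Mapk10 (-2.58 ± 0.28, adjusted p = 3.9e-09) were called in every alternative that tested them. Map3k12 was lower by a smaller amount, -1.47 ± 0.26 (adjusted p = 1.3e-05, 18.4 and 11.7 against 39.8 and 39.2 CPM), a call lost only when ambient RNA was subtracted (adjusted p = 0.0826, range 1.33e-09 to 0.0826). Mapk8 (-0.54) and Mapk8ip3 (-0.65) were called as well, but each lost its call in 3 alternatives, and Mapk8 turned to 0.26 when nuclei with RNA of another class were left out. Map2k4 (-0.13, 95% interval -0.43 to 0.17) and Mapk9 (-0.04, -0.47 to 0.38) were not called. Neuronal markers were at 2006 and 1333 CPM in the microglial sums, from 8986 to 26818 in neuronal labels, and the part of stray neuronal RNA in the microglial values was not tested.

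Nuclei labelled Unknown formed a further group, of 225 male and 170 female nuclei. All fell in 2 deposited clusters, number 7 with 190 and 143 nuclei and number 23 with 35 and 27, and the first prediction for 189 and 146 of them was L2/3 IT CTX-1. They held neuronal markers at 9087 and 7672 CPM, below all 9 neuronal labels within each library, and single markers of other labels were mixed in them. Bcl11b (356 and 335 CPM) and Fam84b (15.95 and 11.98) were above their L5 PT levels, but Fezf2 had no UMI and Pou3f1 stood at 1.06 and 0.631 CPM. Adarb2, a marker of Vip neurons, was at 2102 and 1799 CPM, while Vip itself was at 0 and 0.631. Against the mean of the neuronal labels 5 of 9 members were called, where 30.8% of all genes were, with 3 higher and 2 lower (18.2% and 12.6% of all genes). Map3k12 was higher, with 79.8 and 53.6 against 39.8 and 39.2 CPM (0.90 ± 0.23, adjusted p = 0.00246). Mapk10 was higher by 0.86 ± 0.21 (555 and 738 against 446 and 405 CPM, adjusted p = 0.0018) and Map2k4 by 0.58 ± 0.15 (adjusted p = 0.00236).

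Sarm1 went the other way in the Unknown nuclei, with 13.8 and 10.7 against 31.7 and 31.5 CPM (-1.19 ± 0.38, adjusted p = 0.0166), while Nmnat2 was at 275 and 316 CPM and was not called (0.12, 95% interval -0.26 to 0.50). Sarm1 thus made up 4.78% and 3.28% of the UMIs of Sarm1 and Nmnat2 there. Mapk8ip3 was lower by 0.61 ± 0.20 on the log2 scale (adjusted p = 0.0184), and Mapk10 made up 86.1% and 88.7% of the JNK UMIs. With ambient RNA subtracted Map3k12 was the only one of the 5 still called, and it was not called when nuclei with RNA of another class were left out (adjusted p = 0.0624, range 0.000496 to 0.0624). That removal applied to neuronal nuclei and microglia only. The Unknown nuclei, with microglial markers at 424 and 771 CPM, were all kept. Mapk8ip3 was not called in 4 of its 8 alternatives.

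A list of 44 further genes of the pathway showed what moved around the members. It holds 12 kinases upstream of JNK, 4 scaffolds, 6 genes that set DLK stability and location, 10 targets, 5 phosphatases of JNK and 7 genes of NAD metabolism. Between L5 PT and L2/3 IT, 36 could be tested, and 4 were higher and 2 lower, where 6.76% and 5.99% of all genes were. The median of the list was -0.01, beside -0.02 for all genes. The higher genes were Sh3rf1, which encodes the JNK scaffold POSH (556 and 487 against 224 and 226 CPM, 1.24 ± 0.20, adjusted p = 0.000107), Stmn2, an axonal microtubule protein (1.12, adjusted p = 3.07e-05), Tnik, a kinase of the MAP4K group (3187 and 3199 against 1718 and 1584 CPM, adjusted p = 4.79e-05), and Ddit3, the stress factor CHOP (270 and 154 against 152 and 93.5 CPM, 0.91, adjusted p = 0.0397). Map3k5, which encodes the stress kinase ASK1 (-1.26), and the JNK phosphatase gene Dusp10 (28.2 and 18.5 against 59.8 and 38.1 CPM, -1.04, adjusted p = 0.0432) were lower. Against all other neuronal labels 5 were higher and 3 lower (11.1% and 6.68% of all genes). Sh3rf1, Stmn2, Tnik and Ddit3 were joined by the apoptosis gene Bbc3 (1.37), and Map3k5 and Dusp10 (-1.82) by Map3k4 (-0.79).

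Between inhibitory and excitatory neurons 6 of the 36 genes were higher and 4 lower, near the 11.9% and 12.7% of all genes. Of the 9 targets tested 2 were higher and 2 lower. Dusp10 was higher by 2.71 ± 0.18 (286 and 208 against 47.4 and 38.4 CPM, adjusted p = 1.17e-10) and Atf3, the gene through which the nuclei were sorted, by 1.61 ± 0.21 (221 and 284 against 76.6 and 99.0 CPM, adjusted p = 2.74e-06). Jun, the main substrate of JNK, was lower by 0.98 ± 0.18 on the log2 scale (66.7 and 63.6 against 148 and 173 CPM, adjusted p = 0.00019), and so was Ddit3 (-0.99, adjusted p = 0.00631). Stmn2 (0.67), Map3k1 (0.88), Usp9x, which removes ubiquitin from DLK (0.37), and Map4k4 (0.37) were higher, and Map3k5 (-1.62) and Map3k9 (-0.78) lower.

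In the Unknown nuclei 5 of 39 genes tested were higher and 13 lower, where 18.2% and 12.6% of all genes were. Of the 9 targets tested 6 were among the lower genes, and Atf2 (115 and 82.6 against 88.5 and 84.7 CPM), Bbc3 and Bcl2l11 were not called. Atf3 stood at 4.25 and 5.04 CPM against 125 and 161 in neuronal labels (-4.42 ± 0.56, adjusted p = 2.12e-07), Stmn2 at 15.9 and 17.03 against 381 and 332 (-4.14), Dusp10 at 3.19 and 3.15 against 127 and 94.9 (-4.24) and Jun at 23.4 and 33.4 against 121 and 136 (-1.69, adjusted p = 4.93e-05). Ddit3 was at 23.4 and 6.94 against 149 and 79.6 CPM (-2.57). Mycbp2, which encodes the ubiquitin ligase PHR1 that degrades DLK, was higher, at 1109 and 1246 against 536 and 607 CPM (1.21 ± 0.18, adjusted p = 4.08e-06). Mink1 (1.32), Map3k5 (1.07), Map3k4 (0.69) and Nmrk1 (1.67) were the other higher genes.

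In microglia 11 of 39 genes were higher and 15 lower, where 33.2% and 26.8% of all genes were. Map3k1, which encodes MEKK1, was at 164 and 190 against 16.9 and 17.2 CPM (3.48 ± 0.21, adjusted p = 3.01e-14), Bcl2l11 at 66.2 and 92.8 against 15.2 and 13.6 (2.63), Map3k5 at 193 and 172 against 41.6 and 38.7 (2.52) and Map3k11, which encodes the mixed lineage kinase MLK3, at 36.1 and 27.0 against 9.44 and 6.71 (2.06). The 4 genes of NAD metabolism tested were all higher in microglia, among them Nmnat3 (48.9 and 66.9 against 10.0 and 14.9 CPM, 2.43 ± 0.26, adjusted p = 2.61e-09) and Nampt (1.90), whereas Nmnat2 was lower. The scaffold genes Mapk8ip1 (-2.91) and Mapk8ip2 (-3.12), the kinase gene Tnik (-3.39) and the target Hrk (-4.27) were among the lower genes.

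**Figure D5:**
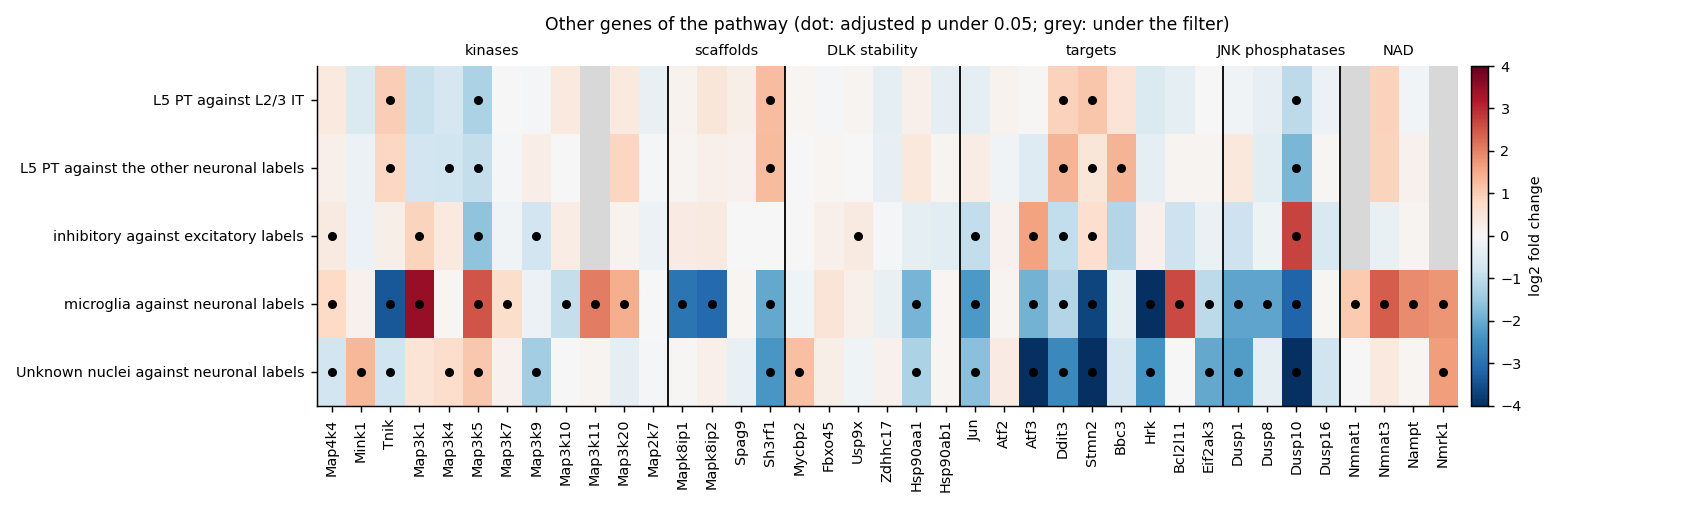
Log2 fold change (colour, values beyond 4 drawn at the end of the scale) of the 39 further pathway genes that could be tested, grouped by role, in 5 comparisons (rows). Dots mark an adjusted p under 0.05 and grey cells genes under the filter on low counts; targets such as Atf3 (-4.42) and Stmn2 (-4.14) are low in Unknown nuclei, and Dusp10 is called in all 5 rows.

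Between the male and the female library there is 1 library each, so sex, depth and library cannot be told apart and no test was made. Over the 9 neuronal labels Mapk10, Mapk9 and Map2k4 were higher in the female library in 1 label each, Mapk8 in 2, Map3k12 in 3, Map3k13 and Nmnat2 in 4, Sarm1 in 5 and Mapk8ip3 in 6. The median difference across labels (female minus male, log2) lay between -0.33 for Map3k12 and 0.19 for Mapk8ip3. Over all genes the median difference was itself below 0, from -0.22 to -0.10 in these labels.

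The genes most like a member in pattern were found by the Pearson r of log2(CPM + 1) over the 30 sums of label and library, among 6803 genes with at least 20 CPM on average. The sums share libraries and depth, so r is a description. For Nmnat2 they were Epb41l1 (0.93), the presynaptic gene Pclo (0.93) and the kinesin gene Kif5c (0.91). For Sarm1 they were the synaptic vesicle gene Syngr3 (0.90), Prmt7 (0.88) and Ptpn5 (0.87). For Map3k12 likeness was weaker, with Iqcb1 (0.75), D130043K22Rik (0.72) and Pnkd (0.72). Over the 18 neuronal sums alone the 9 values fell to between -0.06 and 0.59.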

How the data were processed

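Members and lists were chosen with earlier results of these data known. The deposited matrices hold UMI counts without normalization, which the authors made with CellRanger; introns of the GRCm38 annotation were counted with exons (version 7.0.1 in the methods, 3.1.0 in the submitters' processing notes, 7.0.1, 7.0.0 and 4 in the file headers). Their table of nuclei gave depth and labels, made in Seurat. The deposited SCTransform matrix was not used. All labelled nuclei were kept, because the study's stated filter of 6000 genes and 5% mitochondrial UMIs would remove 46 male and 59 female nuclei and were tried as an alternative; no doublet caller was run here.

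UMIs were summed per label and library, and labels with at least 10 nuclei in each library were tested with edgeR 4.0.16 (limma 3.58.1, R 4.3.3; TMM, filterByExpr by label, glmQLFit and glmQLFTest, two-sided). Fold changes in 1 library are differences between the means over labels of log2 CPM with 0.5 added, after TMM factors, with no test. CPM carry exact Poisson and shares exact binomial 95% intervals, which cover counting error only; 3 counts were the limit at 0. Counting used Python 3.11.15, numpy 2.4.6, scipy 1.17.1 and pandas 2.3.3, with seed 1, and gene positions are from GENCODE on GRCm38. All 9 members are named with values, and so are the 3 genes most alike for Map3k12, Sarm1 and Nmnat2. Not every list gene that was called is named. The fits were tested on simulated data. Between L5 PT and L2/3 IT, 43.0% of 2-fold and 92.9% of 4-fold changes were recovered. For microglia against neuronal labels these were 70.9% and 100%. These percents cover only changed genes that passed the filter on low counts. Of the genes called, 5.76% and 5.06% were false. The simulated sums were independent, with a dispersion (spread beyond counting error) of 0.03 in both. The data of all labels had 0.043, so recovery there could be lower. Each library is 1 pool of animals and pairs the sums. Differences between the libraries correlated in all 36 pairs of labels (0.0309 to 0.476, median 0.178, 8664 genes). Alternatives were the library as a block, DESeq2 1.42.0, RLE factors, no filter, ambient subtraction, the study's filters, removal of mixed nuclei, other L2/3 IT labels, and thinning to 1000 or 2300 UMIs; leaving out L2/3 IT CTX-2 and L6 IT, and using L2/3 IT CTX-1 alone, were added after seeing the data.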

Additional observations from a re-analysis of the deposited data

Results flagged for a closer look

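Some members had opposite signs in the male and female library under the same comparison, a difference that was not tested. For Map3k12 the log2 fold change between L5 PT and L2/3 IT was 0.35 for the male library and -0.25 for the female, between L5 PT and the other neuronal labels 0.29 and -0.27, and between inhibitory and excitatory labels 0.20 and -0.28. For Map3k13 the values were 0.11 and -0.21 between L5 PT and the other neuronal labels, and -0.023 and 0.18 between Unknown nuclei and neuronal labels. For Mapk9 they were -0.12 and 0.11 between L5 PT and the other neuronal labels. In mean CPM, Map3k13 and Mapk9 were lower in L5 PT than in the other neuronal labels in both libraries. None of the 3 genes Map3k12, Map3k13 and Mapk9 was called in edgeR in the comparison concerned.

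Nuclei with a neuronal label that the authors kept out of the neuron subset (421 male and 152 female, median depth 681 and 911.5 UMIs) entered no comparison, and 7 of the 9 members had more than 3 UMIs there in both libraries. Mapk10 had 130 and 193 CPM, under the 427 and 384 CPM of the neuron subset, and microglial markers were at 2530 and 3958 CPM.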

How the results depend on the processing

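Alternatives gave 442 values for the 45 fold changes of members. Of these, 384 kept their side of the threshold (and, where called, their direction) or, for 1 library alone, stayed within 1 SE. Another 25 lost their call and 32 single-library values moved by more. The sign of 1 called fold change turned, Mapk8 in microglia against neuronal labels (0.26 without mixed nuclei). Sign changes between fits where neither value was called count among the 384. Map3k12 between L5 PT and L2/3 IT is an example (-0.07 in the main fit, up to 0.71 in the alternatives). With ambient RNA subtracted, genes called fell to 72 between L5 PT and L2/3 IT, 248 between L5 PT and the other neuronal labels, 549 between inhibitory and excitatory, 3852 for microglia and 1774 for Unknown nuclei, and members called in edgeR were 0, 0, 2, 4 and 1. Without mixed nuclei (928 male and 2136 female nuclei removed, with L6 CT left out because it kept 0 female nuclei) the counts of genes were 107, 213, 401, 4074 and 1968, and of members 0, 0, 1, 4 and 2. In the L5 PT comparisons 0 members had an unadjusted p under 0.05 in either setting, and DESeq2 on all counts called 1 in each. Both remove counts or nuclei, the SE of Mapk10 between L5 PT and L2/3 IT rose from 0.16 to 0.93 and 0.45, and the cause was not tested. The estimated ambient share was 97.7% in female L2/3 IT CTX-2 and 88.6% in female L6 IT. Without these 2 labels, a choice made after seeing the data, 3 members and 2150 genes were called between inhibitory and excitatory. The main fit called 5 members and 2132 genes there. Counts in this paragraph are not shares of the genes tested in each setting.

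The share of higher genes among those called moved from 53% to 38.9%, from 62.5% to 86.3%, from 55.3% to 68.4% and from 59% to 75.3% with ambient subtraction (L5 PT against L2/3 IT, L5 PT against the others, microglia, Unknown). Without the filter on low counts it became 76%, 67.4% and 69.3% in the latter 3, and 69.3% for Unknown without mixed nuclei. The median of all genes shifted by 0.12 to 0.32 with ambient subtraction, and by up to 0.37 without mixed nuclei and 0.17 without the filter.

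With the library as a block, the log2 fold change of Mapk10 between L5 PT and L2/3 IT was -0.74 (adjusted p = 0.000174, range over alternatives 1.41e-06 to 0.839), and the block changed no call of a member. DESeq2, RLE factors, the study's filters, L2/3 IT labels summed together and L2/3 IT CTX-1 alone changed none either. Shares of nuclei depend on depth: thinned to 1000 UMIs, 52 of 54 moved by more than the SD between libraries. Mean CPM of members in the neuronal, microglial and Unknown labels also depended on ambient RNA. With it subtracted, 65 of these levels moved by at least the SD between libraries and 34 did not. With 2 sums per label, the intervals of Map3k12 and Sarm1 stay wide.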

Other observations

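Astrocytes, with 53 male and 62 female nuclei and astrocyte markers at 14059 and 11192 CPM, had Mapk10 at 631 and 640 CPM and Map3k13 at 61.9 and 50.2 CPM, both as high as in many neuronal labels, beside 0 UMIs of Sarm1 and 86.6 and 61.1 CPM of Nmnat2.

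Mapk9 had its highest mean levels outside neurons, and they differed between the libraries. In VLMC nuclei it had 232 CPM for the male library and 93.5 for the female (113 UMIs in 113 nuclei and 94 in 161), and in SMC-Peri nuclei 222 and 92.7 CPM, while Map2k4 in VLMC nuclei was at 142 and 123 CPM. Neither label was part of a comparison.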
